A study of Mus musculus with 4 samples.

Results

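Nrg1, Nrg2, Gria3, Gabra2, Ncam1, Apba1, Stxbp6, Epha7 and Met, 9 of the 32272 genes in the matrix, were described in the RNA and open chromatin of mouse bone marrow progenitor nuclei. Most are best known from nerve cells and their connections. All were chosen by their RNA levels in clusters of these same nuclei, where each stood among the leading genes. Their height in a leading population is thus a description and carries no test. RNA was taken from the gene's own row, and chromatin from the 123 of 174339 peaks that lie within 50 kb of the span of their annotated start sites. The study compared unligated control mice (Ctrl) with mice in which a silk ligature had been tied for 14 days to cause periodontitis (Lig), all male wild-type C57BL/6 mice of 8 weeks. Bone marrow of several mice was pooled per sample, nuclei of sorted Lin-cKit+ cells, the compartment of hematopoietic stem and progenitor cells, were profiled for RNA and ATAC together, and the 4 samples are thus the RNA and the ATAC library of 1 Ctrl and of 1 Lig pool. The deposited matrix joined both pools under barcode suffixes that no label ties to a pool, called library 1 and library 2 here, so no comparison of ligature with control was made and there were no replicates.

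Neuregulins are secreted or membrane-bound growth factors that signal through receptors of the ErbB family. Glutamate and GABA receptors are ion channels assembled from several subunits, and Gria3 and Gabra2 encode 1 subunit each of an AMPA-type glutamate receptor and of the GABA-A receptor. Ncam1 is an adhesion molecule of nerve cells, Apba1 (Mint1) and Stxbp6 (amisyn) are adaptors of the machinery that docks and fuses vesicles, and Epha7 and Met are receptor tyrosine kinases, for ephrin-A ligands and for hepatocyte growth factor. Hematopoietic stem cells (HSC) pass through multipotent progenitors (MPP) to granulocyte-monocyte progenitors (GMP), from which neutrophil (NeuP) and monocyte progenitors (cMoP) arise. Conventional (cDCP) and plasmacytoid (pDCP) dendritic cell, basophil (BaP), megakaryocyte (MkP) and erythrocyte progenitors (EryP) are other progenitor classes.

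After filtering, 5905 nuclei of library 1 and 7714 of library 2 remained, with 10294527 and 12537328 unique molecular identifiers (UMIs), a median of 1641 and 1516.5 per nucleus, and 72 nuclei of library 2 had a barcode that was also found in library 1. Library 1 had a median of 636 genes per nucleus and library 2 of 410, and 4169 and 1988 nuclei held at least 500 genes. Genes at the ribosomal locus took 43.0% of UMIs in library 1 and 53.2% in library 2. These UMIs were kept in the totals of the levels below and when nuclei were thinned to 1000 UMIs. Nuclei were grouped into 17 populations without using the 9 genes or their peaks, and 15 of these, which held 50 nuclei or more in both libraries, were ranked. A population is called "-like" after its marker genes, and 3 ranked clusters stayed unnamed. Cluster 0, with 1444 nuclei in library 1 and 2672 in library 2, was led by Tnf, Itga1, Gpr141 and F13a1, cluster 5 by Ccnd1, Ephb2, Bcl2 and Runx2, and cluster 7 by Ccnb1ip1, Zc3h7a, D130009I18Rik and AY036118. Levels (CPM) are the UMIs of a gene for each 1000000 UMIs of the nuclei of a population, with exact Poisson 95% intervals that cover counting error only. Where a gene had 0 UMIs, the limit given is 3 counts, a 1-sided 95% limit that lies below the upper end of that interval. Free RNA was not removed. Kit, the gene of the sorted surface protein, had 103 CPM over all nuclei, from 13.9 CPM in cMoP-like to 263 CPM in EryP-like nuclei.

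The 9 genes did not share 1 population. Nrg1 and Stxbp6 were highest in cMoP-like nuclei, Apba1 and Met in cDCP-like nuclei, Nrg2 in cluster 0, Gria3 in cluster 5, Gabra2 in GMP-like nuclei, Ncam1 in NeuP-like nuclei and Epha7 in BaP-like nuclei. For 7 of the 9 genes the level in that population was at least 2-fold over the other nuclei in both libraries (pseudocount of 1 CPM), as it was for 21% of the 6907 genes with at least 200 UMIs, and the exceptions were Nrg1 and Met. With a pseudocount of 10 CPM it was so for 4. The same population led in both libraries for 7 of 9 genes (27.4% of all genes), the exceptions being Nrg1 and Apba1. The myeloid label of the set was checked with markers that are mostly granulocyte and monocyte genes, none of them particular to basophils. Of 18 broad myeloid markers, at least 3 were raised in the leading population of 4 genes, namely Nrg1, Gabra2, Ncam1 and Stxbp6 (13.5% of all genes), with 7 in GMP-like, 6 in cMoP-like and 5 in NeuP-like nuclei. Only 2 were raised in cluster 0 (F13a1 and Csf1r), in cluster 5 (Irf8 and Ly86) and in cDCP-like nuclei (Irf8 and Ccr2), and 0 in the BaP-like nuclei that led for Epha7. The list can say little on basophil and dendritic progenitors, so a low count there does not make them non-myeloid. GMP-like nuclei led for Gabra2, NeuP-like nuclei for Ncam1 and cDCP-like nuclei for Apba1 under every other clustering tried. The leading population of each of the other genes moved under at least 1 of them. With at least 500 genes per nucleus, the leaders of Ncam1 and Apba1 moved too. That limit left 8 ranked populations, and a population left unranked could not lead. Genes whose leader raised at least 3 of these markers numbered 8 instead of 4 with clusters drawn from RNA alone. They numbered 2 with at least 500 genes per nucleus.

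**Figure D1:**
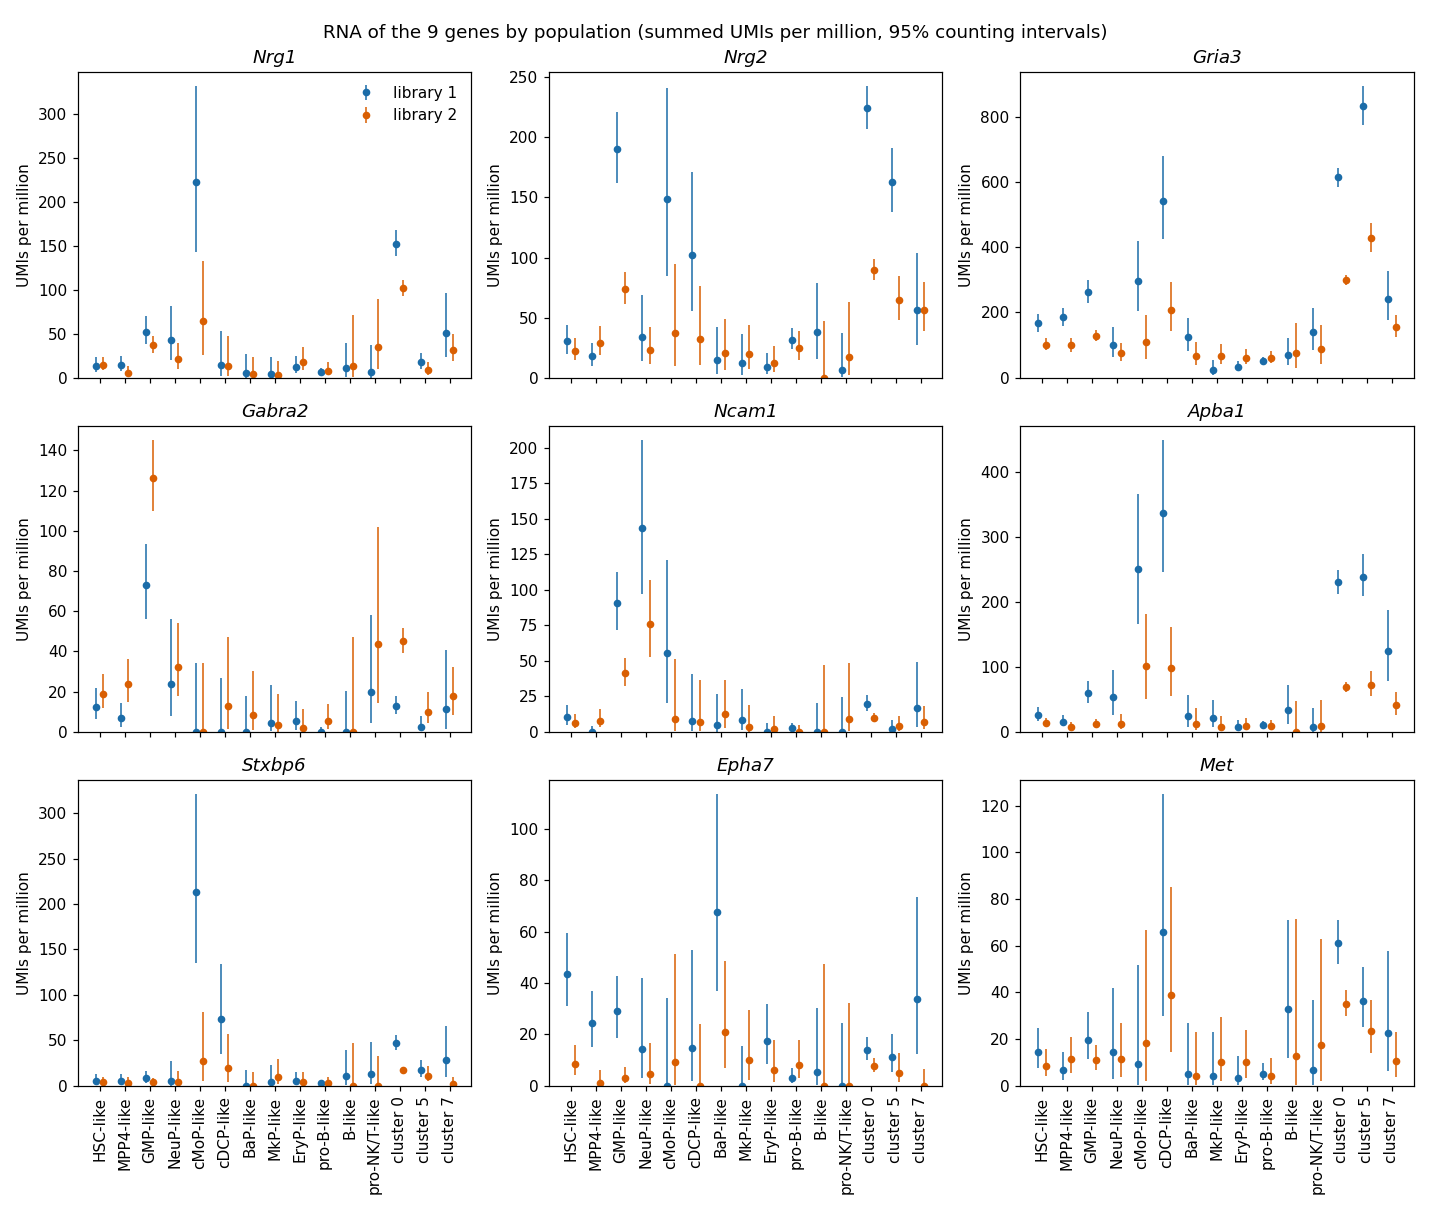
Level in CPM (y axis, linear) of each gene in the 15 ranked populations (x axis) in library 1 (blue) and library 2 (orange), with exact Poisson 95% intervals as bars. Gria3 reached 832 CPM in cluster 5 of library 1, and Gabra2 is the gene whose leading level was higher in library 2 (126 CPM) than in library 1 (73.0 CPM).

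Levels were compared between genes per 100 kb of genome span, since nuclei also hold pre-mRNA, and whether UMIs scale with span was not tested. Gria3 (chrX:41400854-41678601, plus strand) was highest with 93.0 CPM per 100 kb over all nuclei, followed by Nrg2 (chr18:36017652-36197380, minus strand) with 45.3 and Apba1 (chr19:23758887-23949596, plus strand) with 37.6. Met (chr6:17463800-17573980, plus strand) and Gabra2 (chr5:70957597-71095849, minus strand) followed with 21.3 and 20.5 CPM per 100 kb. Epha7 (chr4:28813131-28967499, plus strand), Stxbp6 (chr12:44852484-45074709, minus strand), Ncam1 (chr9:49502136-49798925, minus strand) and Nrg1 (chr8:31814551-32884029, minus strand) lay between 5.00 and 7.23 CPM per 100 kb. Coordinates are GRCm38. All 9 genes are protein-coding, and genes in the matrix that overlap them held at most 6 UMIs.

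Nrg1, the founding neuregulin, had 1221 UMIs in all. In cMoP-like nuclei of library 1 it reached 223 CPM (143 to 332) from 24 UMIs, and in those of library 2 it reached 64.5 CPM (25.9 to 133) from 7. In cluster 0 it stood at 153 CPM (139 to 168) and 102 CPM (92.8 to 111), from 428 and 484 UMIs. The interval of cMoP-like nuclei with both libraries summed (97.5 to 204 CPM) overlaps that of cluster 0 (113 to 129 CPM), and cluster 0 led in library 2. GMP-like nuclei, the next in order at 42.2 CPM, lay apart from cluster 0, and MkP-like nuclei were last at 3.71 CPM. A UMI of Nrg1 was found in 22.0% of cluster 0 nuclei in library 1 (19.9% to 24.2%, exact Clopper-Pearson, 318 of 1444) and in 15.3% in library 2 (14.0% to 16.8%, 410 of 2672), against 1.88% and 2.82% of EryP-like nuclei, whose median UMIs were 1585.5 and 1318 beside 1863.5 and 1689.5 in cluster 0. Thinned to 1000 UMIs per nucleus, shares in cluster 0 were 13.8% and 9.05%, and in EryP-like nuclei 1.41% and 2.07%. In both libraries cluster 0 stood well over EryP-like nuclei.

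Chromatin around Nrg1 was summed over 46 peaks, since its annotated starts span 966407 bases. These peaks led in cluster 0 with 148 peak CPM (peak counts for each 1000000 peak counts of the population) and in both libraries taken alone, and they ranked cMoP-like nuclei at place 6. Peaks over the inner starts held 2871, 1517 and 3608 counts, while the peak at the outermost start (chr8:32883813-32884641) held 457. A peak at chr8:31980549-31981381, 28144 bases downstream of its nearest start, was highest in cMoP-like nuclei with 11.4 peak CPM (6.43 in library 1 and 16.8 in library 2) and was at 0 in EryP-like nuclei. In library 1 taken alone, cluster 7 was the highest for that peak. The reference sequence at the centre of this peak (chr8:31980815-31981114, plus strand, RefSeq GRCm38.p6) is shown. Of the Nrg1 peaks with at least 500 counts, this one had the widest range over populations. With the libraries summed it was highest in the population that led the RNA of Nrg1. The level of the peak there was higher in library 2 and that of the RNA in library 1. The Nrg1 peak with the next widest range (chr8:31976815-31977616) was highest in cluster 0 in both libraries, at 10.0 peak CPM with the libraries summed. Capitals in the sequence mark matches to C/EBP (TTGCNNAA) and RUNX (TGTGGT) motifs on either strand.
Nrg1 peak: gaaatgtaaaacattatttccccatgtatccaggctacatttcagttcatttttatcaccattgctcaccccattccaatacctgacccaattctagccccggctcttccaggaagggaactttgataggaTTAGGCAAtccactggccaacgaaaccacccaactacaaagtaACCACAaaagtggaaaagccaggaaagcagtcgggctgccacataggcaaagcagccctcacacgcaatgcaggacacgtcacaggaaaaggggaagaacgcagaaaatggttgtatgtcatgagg

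Nrg2, a second neuregulin, had 1860 UMIs and led in cluster 0, with 224 CPM (207 to 242) in library 1 and 89.7 CPM (81.4 to 98.6) in library 2, 3.44-fold and 2.21-fold over the other nuclei. GMP-like nuclei (190 and 73.7 CPM) and then cluster 5 (163 and 64.5 CPM) followed in each library. With the libraries summed, cluster 5 stood before GMP-like nuclei (117 and 114 CPM). In these sums the interval of cluster 0 overlapped that of cluster 5, and that of cluster 5 overlapped GMP-like nuclei. EryP-like nuclei were last with 10.3 CPM. Of cluster 0 nuclei, 32.2% (29.8% to 34.7%) in library 1 and 14.4% (13.1% to 15.8%) in library 2 held a UMI of Nrg2, against 0.938% and 1.88% of EryP-like nuclei, and after thinning 19.3% and 8.14% did, against 0.704% and 1.24%. The 27 peaks within 50 kb led in GMP-like nuclei with 144 peak CPM and placed cluster 0 next, whereas the 8 peaks within 10 kb led in cluster 0 with 78.6. The peak over the Nrg2 start, with 5600 counts, was highest in pro-B-like nuclei, at 29.6 peak CPM.

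The ErbB receptors of the neuregulins were near the floor in the same nuclei. Erbb2, the shared partner of these receptors, had 0 UMIs in the nuclei kept, which allows up to 3 counts, and 1 UMI in the whole matrix. Erbb3 had 34 UMIs and Erbb4 had 56, with at most 5.57 CPM in any population. The proteases that shed neuregulins were higher, with 30.2 CPM for Adam17 and 17.0 CPM for Bace1 over all nuclei. None of the 8 genes of this family was raised 2-fold in the leading population of its neuregulin with at least 20 UMIs there.

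Gria3 had 5898 UMIs, the most of the 9. In cluster 5 it reached 832 CPM (773 to 893) in library 1 and 428 CPM (384 to 475) in library 2, 2.94-fold and 2.35-fold over the other nuclei. Cluster 0 followed with 614 CPM (585 to 643) and 299 CPM (284 to 315), and cDCP-like nuclei with 540 CPM (424 to 678) and 208 CPM (142 to 294). Cluster 5 lay apart from cluster 0, cluster 0 and cDCP-like nuclei overlapped, and EryP-like nuclei were last with 46.0 CPM. Of cluster 5 nuclei, 72.8% (68.3% to 77.0%) and 49.7% (45.0% to 54.4%) held a UMI of Gria3, against 5.00% and 6.90% of EryP-like nuclei, and after thinning 54.2% and 34.3% did, against 2.82% and 3.31%. Every ranked population held UMIs of Gria3 in both libraries.

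The 5 peaks near Gria3 led in cluster 5, as the RNA did, with 20.4 peak CPM, although cluster 7 led in library 1. The peak at its start ranged from 2.53 peak CPM in NeuP-like nuclei to 9.03 in MPP4-like nuclei, while a peak at -11498 bases, upstream of the start (chrX:41388899-41389813) ranged from 1.07 in pro-NK/T-like nuclei to 9.29 in cluster 0. In library 1 alone, cluster 5 was highest for the start peak and cluster 7 for the upstream peak. In library 2 alone, cDCP-like nuclei were highest for the upstream peak. The centre of that upstream peak (chrX:41389206-41389505, plus strand) is shown because it separated the populations more than the start did, with a match to a MYB motif (AACTGNC) in capitals.
Gria3 upstream peak: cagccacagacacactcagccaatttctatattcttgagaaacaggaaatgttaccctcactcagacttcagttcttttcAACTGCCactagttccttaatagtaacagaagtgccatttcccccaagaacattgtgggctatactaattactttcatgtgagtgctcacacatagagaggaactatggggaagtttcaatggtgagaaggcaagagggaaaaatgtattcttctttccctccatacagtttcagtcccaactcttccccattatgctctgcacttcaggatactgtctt
Other AMPA receptor subunits were scarce, with 29 UMIs for Gria1, 59 for Gria2 and 52 for Gria4. Of the 8 genes of the AMPA receptor list, the scaffold gene Dlg1 (2107 UMIs) and the adaptor gene Grip1 (426 UMIs) were the highest, and none was raised 2-fold in cluster 5 with at least 20 UMIs there.

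Gabra2 had 646 UMIs and led in GMP-like nuclei, with 73.0 CPM (56.1 to 93.5) in library 1 and 126 CPM (110 to 145) in library 2, from 63 and 206 UMIs, 9.84-fold and 4.49-fold over the other nuclei. With the libraries summed cluster 0 followed. It had 12.9 CPM (9.0 to 17.8) and 45.0 CPM (39.1 to 51.4), apart from GMP-like nuclei in each library. In library 1 alone, NeuP-like (24.0 CPM from 5 UMIs) and pro-NK/T-like nuclei (19.9 CPM from 3 UMIs) stood above cluster 0. In cMoP-like nuclei Gabra2 was found in 0 of 69 and 0 of 79 nuclei, which allows up to 13.9 CPM (3 counts), and B-like nuclei also had 0. A UMI was found in 11.3% (8.60% to 14.6%) and 17.7% (15.4% to 20.3%) of GMP-like nuclei, with 1718.5 and 1622 median UMIs, against 0.938% and 0.313% of EryP-like nuclei, and after thinning in 6.59% and 11.7% against 0.352% and 0%.

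The RNA of Gabra2 had little accessible chromatin beside it. There was 1 peak within 50 kb, over its start (chr5:71095622-71096514), and it held 217 counts in all nuclei, 0.931 peak CPM in GMP-like nuclei and 1.47 in pro-B-like nuclei, its highest population. With the window extended over the whole gene, it was still the 1 peak found. Start peaks of the other 8 genes included at least 1 with 1699 counts or more. The 12 other GABA-A subunits on the list were near the floor and held 1 to 23 UMIs each, with Gabrb1 at 23. Gphn, which encodes the scaffold protein gephyrin, had 121458 UMIs, and Gabarap, which encodes a receptor-associated protein, had 789, and neither was raised in GMP-like nuclei (1.1-fold and 0.974-fold).

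Ncam1 had 367 UMIs and led in NeuP-like nuclei at 144 CPM (97.0 to 205) in library 1 and 76.0 CPM (52.3 to 107) in library 2, from 30 and 33 UMIs, 9.01-fold and 6.44-fold over the other nuclei. GMP-like nuclei followed at 90.4 CPM (71.5 to 113) and 41.1 CPM (31.9 to 52.2), and with the libraries summed the intervals of these neighbours lay apart. cMoP-like nuclei came next at 32.4 CPM, from 6 UMIs in library 1 (55.7 CPM) and 1 in library 2 (9.22 CPM), and overlapped GMP-like nuclei. Cluster 0 had 13.4 CPM, and the lowest were EryP-like nuclei with 0.939 CPM and B-like nuclei with 0 UMIs, which allows up to 11.5 CPM. A UMI was found in 14.0% (9.25% to 19.9%) and 10.0% (6.87% to 14.0%) of NeuP-like nuclei, with 916 and 1249 median UMIs, against 0% and 0.313% of EryP-like nuclei, and after thinning, which left out 104 and 81 NeuP-like nuclei, in 17.3% and 6.88% against 0% and 0.413%.

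Chromatin at Ncam1 was most open where the RNA was highest. All 3 peaks near its start were highest in NeuP-like nuclei in each library, and together they reached 55.4 peak CPM there against 2.65 in cDCP-like nuclei. The clearest lies 772 bases downstream of the nearest start (chr9:49797584-49798389, outside annotated exons), with 24.8 peak CPM in NeuP-like nuclei (29.6 in library 1 and 21.9 in library 2), 18.7 in GMP-like nuclei and 0 in cDCP-like nuclei. Its centre (chr9:49797837-49798136, plus strand) is printed as the window with the widest range among the peaks of these genes. Capitals mark, on either strand, a match to the PU.1 and ETS motif (AGGAAGT), a pair of C/EBP matches (TTGCNNAA), a RUNX match (TGTGGT) and the left part of the REST site (CAGCACC).
Ncam1 downstream peak: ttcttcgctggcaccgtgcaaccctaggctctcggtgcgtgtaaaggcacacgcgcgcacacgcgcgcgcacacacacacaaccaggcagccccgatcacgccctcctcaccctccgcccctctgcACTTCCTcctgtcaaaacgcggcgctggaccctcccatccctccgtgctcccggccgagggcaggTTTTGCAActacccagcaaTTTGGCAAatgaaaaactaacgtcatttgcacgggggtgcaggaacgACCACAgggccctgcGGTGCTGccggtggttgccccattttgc
Of 7 genes linked to Ncam1, L1cam, a related adhesion gene, stood at 10 UMIs in NeuP-like nuclei. This was 4.70-fold over the other nuclei with a pseudocount of 1 CPM. L1cam was highest in cDCP-like nuclei with 51.6 CPM. The polysialic acid synthase genes St8sia4 (1927 UMIs) and St8sia2 (16 UMIs), and the kinase gene Fyn (1006 UMIs), were not raised in NeuP-like nuclei.

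Apba1 had 1636 UMIs and led in cDCP-like nuclei with 336 CPM (246 to 448) in library 1 and 97.6 CPM (54.6 to 161) in library 2, from 46 and 15 UMIs, 3.12-fold and 2.51-fold over the other nuclei. In cMoP-like nuclei it stood at 251 CPM (165 to 365) and 101 CPM (50.6 to 181), in cluster 5 at 239 and 71.9 CPM and in cluster 0 at 230 and 68.1 CPM. With the libraries summed, the first 3 of these 4 neighbours overlapped, and cluster 5 lay apart from cluster 0 (160 and 128 CPM). Within each library, the levels of cluster 5 and cluster 0 lay close together. The order of the first pair differed between libraries. EryP-like nuclei were last at 7.51 CPM. In pDCP-like nuclei, too few to be ranked, the first library gave 403 CPM (284 to 556) from 37 UMIs and the second gave 97.1 CPM (26.5 to 249) from 4. A UMI was found in 34.6% (24.2% to 46.2%) and 12.1% (6.63% to 19.9%) of cDCP-like nuclei against 1.25% in each library of EryP-like nuclei, and after thinning in 22.2% and 8.97% against 0.352% and 0.826%.

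The 16 peaks near Apba1 also led in cDCP-like nuclei, with 111 peak CPM, although cMoP-like nuclei led in library 2. That window also holds starts of 3 other genes, and those of Nrg1, Stxbp6 and Epha7 hold starts of 1 each. Within it, a peak 868 bases downstream of the start of Apba1 (chr19:23759350-23760160) reached 31.4 peak CPM in cDCP-like nuclei (31.7 in library 1 and 31.1 in library 2) against 1.78 in pro-NK/T-like nuclei. Its centre (chr19:23759605-23759904, plus strand) is shown with an E-box (CAGCTG) in capitals.
Apba1 downstream peak: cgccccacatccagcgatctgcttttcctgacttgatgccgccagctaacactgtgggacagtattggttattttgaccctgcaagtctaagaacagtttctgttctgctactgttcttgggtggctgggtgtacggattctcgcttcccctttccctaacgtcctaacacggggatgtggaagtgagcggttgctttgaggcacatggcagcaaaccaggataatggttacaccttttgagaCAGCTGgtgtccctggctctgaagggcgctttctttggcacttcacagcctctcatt

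Stxbp6 had 340 UMIs and was highest in cMoP-like nuclei, with 214 CPM (135 to 321) in library 1 and 27.7 CPM (5.70 to 80.8) in library 2, from 23 and 3 UMIs, 11.1-fold and 2.91-fold over the other nuclei. In library 2 the value rests on 3 UMIs and its interval reaches below the level of cluster 0 (17.0 CPM, 13.5 to 21.1). In library 1 cluster 0 had 47.5 CPM (39.8 to 56.3), and BaP-like nuclei had 0 UMIs in both. Of cMoP-like nuclei, 26.1% (16.3% to 38.1%) and 3.80% (0.790% to 10.7%) held a UMI of Stxbp6, against 0.938% and 0.627% of EryP-like nuclei, and after thinning 14.8% and 1.72% did against 0% in both. The 10 peaks near Stxbp6 led in cMoP-like nuclei in both libraries, at 73.7 peak CPM against 9.95 in pro-NK/T-like nuclei. The peak over the start (chr12:45073952-45074826) was highest there too, at 35.0 peak CPM (40.2 and 29.2), while a peak at -7086 bases, upstream of the start (chr12:45081374-45082216) was highest in cluster 5 at 16.7 and stood at 6.74 in cMoP-like nuclei.

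Of 17 genes of the Mint and SNARE list, App, the amyloid precursor that Mint adaptors bind, and Cask, a scaffold partner of Mint1, were over 2-fold higher in cMoP-like nuclei than in the others, 2.98-fold with 72 UMIs and 2.92-fold with 27 UMIs. In the cDCP-like nuclei that led for Apba1 they stood at 0.638-fold and 1.93-fold, and App was highest in NeuP-like nuclei (353 CPM, beside 333 CPM in cMoP-like nuclei). App and Stxbp5 were the highest of the list with 113 and 84.1 CPM over all nuclei. The neuronal SNARE gene Snap25 had 4 UMIs and Apba2 also had 4. The ubiquitous Snap23 had 302 UMIs and Vamp8, of secretory granules of blood cells, had 1109.

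Epha7 had 255 UMIs, the fewest of the 9. It was highest in BaP-like nuclei with 67.6 CPM (36.9 to 113) in library 1 and 20.8 CPM (6.74 to 48.5) in library 2, from 14 and 5 UMIs, 4.16-fold and 3.55-fold over the other nuclei. HSC-like nuclei came next with 43.6 CPM (31.0 to 59.6) and 8.56 CPM (4.11 to 15.7), and these neighbours overlapped. In BaP-like nuclei a UMI was found in 7.35% (3.58% to 13.1%) and 1.88% (0.388% to 5.38%), against 2.50% and 0.940% of EryP-like nuclei, and the intervals of both populations overlap in each library (7.21% and 1.59% against 1.76% and 0.413% after thinning), so these shares do not set the populations apart. EryP-like nuclei were the fourth highest for Epha7 (12.2 CPM) and are no background for this gene. The 4 peaks near Epha7 led in BaP-like nuclei in both libraries, at 56.1 peak CPM, but over the whole gene and 50 kb on each side GMP-like nuclei led, at 100.6, and the peak over its first start (chr4:28812561-28813448, 6846 counts) was highest in EryP-like nuclei at 42.2 and reached 41.6 in BaP-like nuclei. No other gene of the Eph and ephrin-A list of 12 reached 100 UMIs, Efna5 and Epha2 being the highest with 71 and 69.

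Met had 536 UMIs and was highest in cDCP-like nuclei with 65.7 CPM (30 to 125) in library 1 and 39.0 CPM (14.3 to 85.0) in library 2, from 9 and 6 UMIs. Cluster 0, with 61.1 CPM (52.2 to 70.9) and 35.1 CPM (30 to 40.8), held 338 of the UMIs and did not differ from cDCP-like nuclei beyond the intervals. In cluster 0, 10.5% (8.93% to 12.2%) and 5.95% (5.08% to 6.92%) of nuclei held a UMI of Met, against 0.625% and 1.57% of EryP-like nuclei, and after thinning 6.12% and 3.67% did against 0.352% and 0.826%. The 11 peaks near Met led in cMoP-like nuclei in both libraries with 98.6 peak CPM. The start peak (chr6:17463323-17464240) reached 52.3 there against 39.4 in cDCP-like and 1.96 in B-like nuclei. The RNA of Met in cMoP-like nuclei was 3 UMIs, 13.9 CPM (2.86 to 40.6), an interval that overlaps those of cDCP-like nuclei.
Hgf, the ligand of Met, had 200 UMIs and was highest in BaP-like nuclei with 84.8 CPM. Met was last there with 4.46 CPM, from 1 UMI in each library, and not apart from pro-B-like nuclei, the next lowest. Grb2 and Cbl, signalling partners of Met found in most cells, were the highest of the list of 9, with 91.5 and 84.3 CPM.

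The motifs were also counted over all peaks. Among central windows of 300 bases, the PU.1 and ETS motif was found in 20.3% of the 123 member peaks and in 22.2% of 174282 peaks, the C/EBP motif in 16.3% and 14.2%, the RUNX motif in 34.1% and 29.7%, the MYB motif in 20.3% and 15.7%, the E-box in 18.7% and 19.7%, the ETS-IRF composite in 8.94% and 5.40%, and the left part of the REST site in 8.94% and 8.31%. The GATA motif (AGATAA), searched as well, was in 16.3% and 13.3%, the AP-1 motif (TGANTCA) in 14.6% and 11.4%, and the right part of the REST site (GGACAGC) in 4.07% and 6.88%. Both strands were searched, matches in the printed windows did not overlap one another, and a match is a run of letters that does not show binding.

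**Figure D2:**
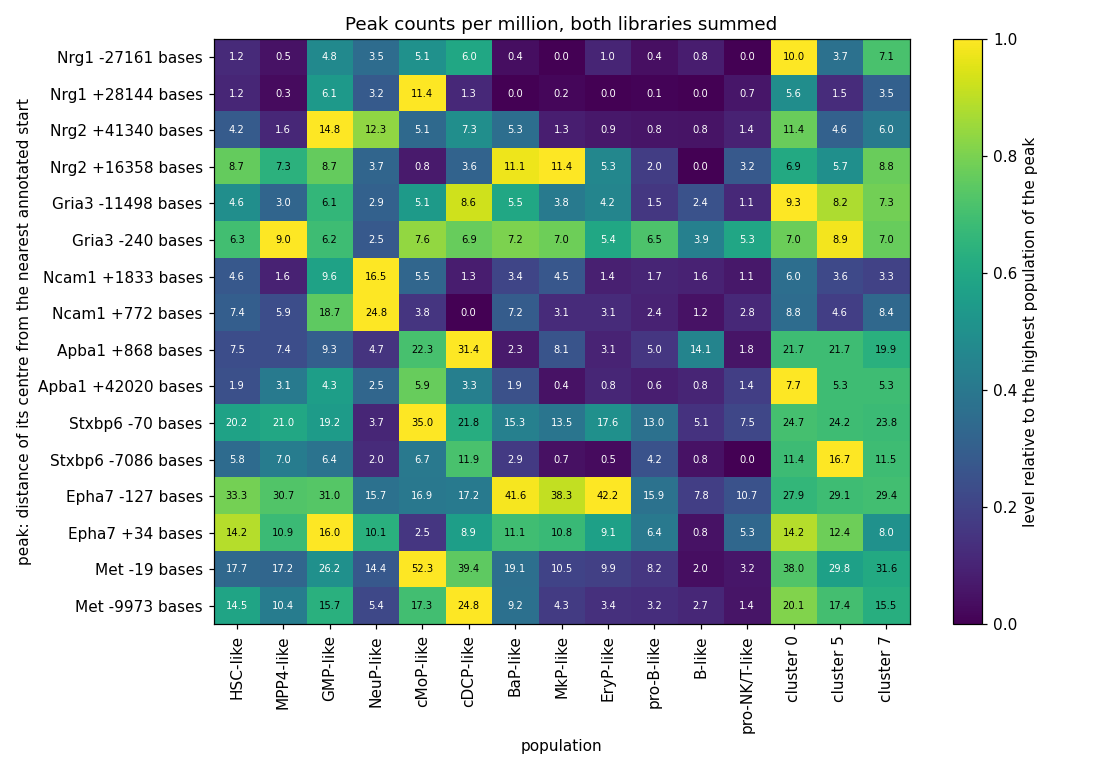
Peak CPM (numbers in cells) of 16 peaks near 8 genes (rows, by distance from the nearest start) in 15 populations (columns), both libraries summed, with colour scaled to the highest population of each peak. The Ncam1 peak 772 bases downstream runs from 24.8 in NeuP-like to 0 in cDCP-like nuclei, and the Met start peak from 52.3 in cMoP-like to 1.96 in B-like nuclei.

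RNA and accessibility led in the same population for 5 of the 9 genes, Gria3, Ncam1, Apba1, Stxbp6 and Epha7, as they did for 19.8% of 6899 genes. With peaks over the whole gene Epha7 left this group and Nrg2 joined it. Over 30 points, 1 for each ranked population and library, the correlation of log2 RNA level with accessibility within 50 kb was 0.73 for Nrg2, 0.66 for Ncam1, 0.56 for Apba1, 0.51 for Nrg1, 0.49 for Stxbp6, 0.46 for Met, 0.44 for Gria3 and 0.43 for Epha7, beside a median of 0.12 over 6899 genes. Gabra2 had too few peak counts for this. The points share libraries, depth and cluster boundaries drawn in part from both kinds of count, so these values are descriptions. The 9 genes were also chosen by RNA that leads clusters and the 6899 genes were not, so these sets are unlike.

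**Figure D3:**
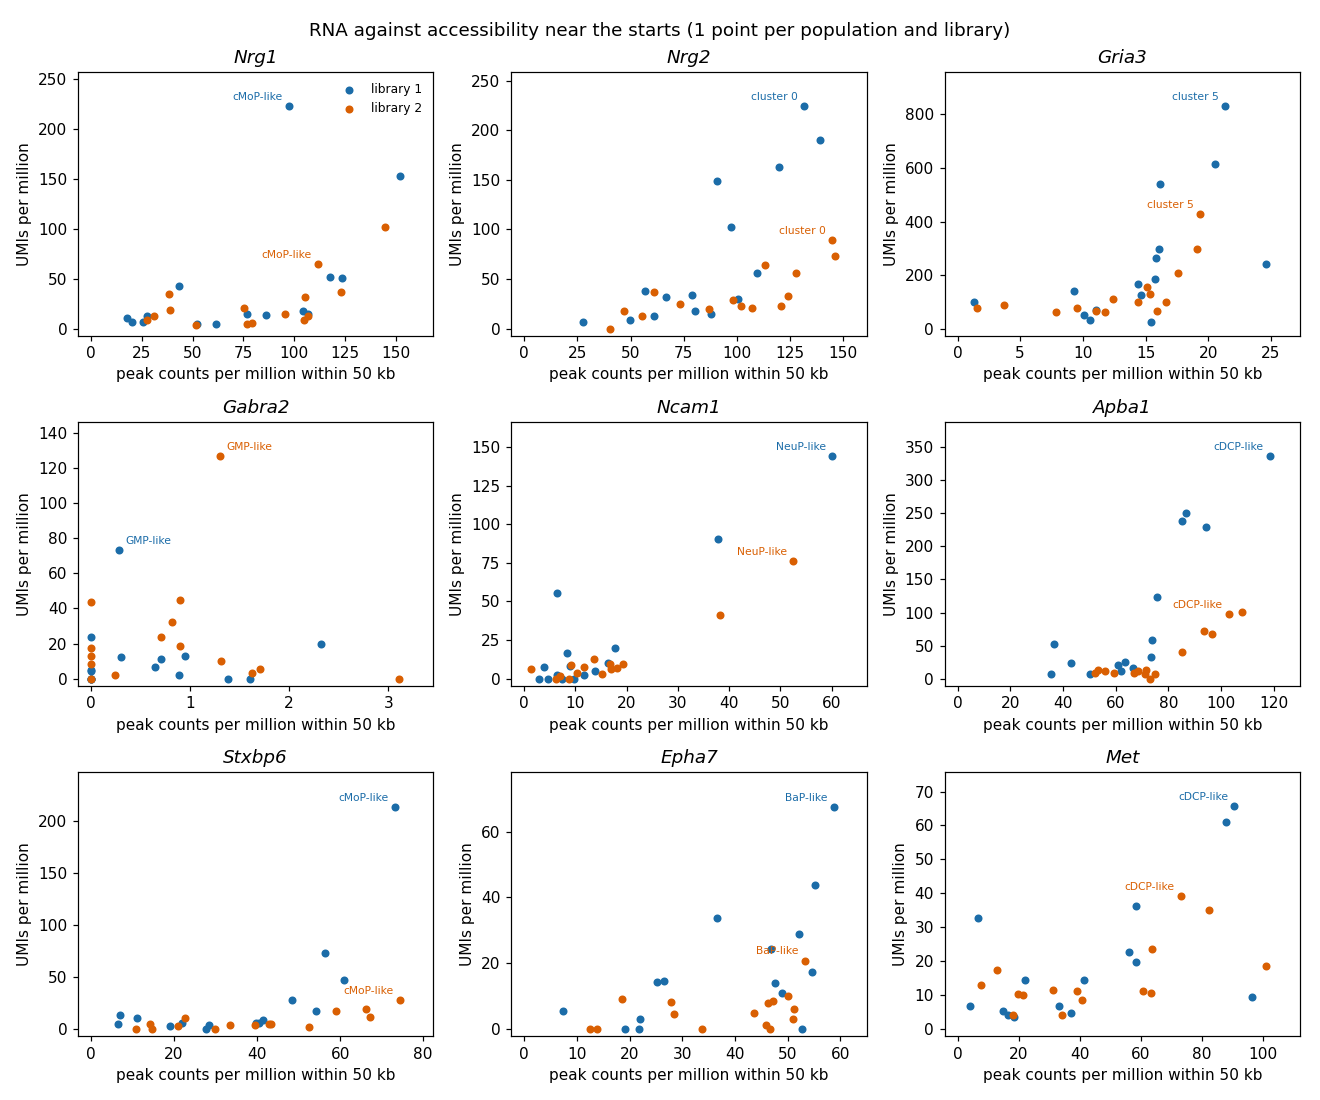
RNA level in CPM (y axis) against peak CPM within 50 kb of the starts (x axis) for each gene, 1 point for each of 15 populations in library 1 (blue) and library 2 (orange), with the population that led the RNA named. Ncam1 in NeuP-like nuclei stands far along both axes, and Gabra2 in GMP-like nuclei is high in RNA at 0.283 and 1.30 peak CPM.

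Between the libraries, accessibility within 50 kb of the 9 genes gave ratios of library 2 over library 1 from 1.02 for Gria3 to 1.29 for Ncam1 over all nuclei, and RNA ratios ran from 0.355 for Epha7 to 3.17 for Gabra2. For Nrg1 the RNA ratio (0.881) lay nearer to 1 than the peak ratio (1.21). Unlike the RNA ratios, the peak ratios were not set beside those of other genes. Over all nuclei Gabra2 was 3.17-fold higher in library 2 (2.61 to 3.86, exact interval of the counts), at 40.9 against 12.9 CPM, and a ratio of at least 2 was seen in 0.188% of the 10614 genes that held 20 UMIs or more in both libraries. It ranked at place 3 of these genes. Apba1 had 0.358 of its level in library 1 (0.322 to 0.398), Epha7 0.355 (0.268 to 0.467) and Stxbp6 0.454 (0.360 to 0.569), and 17.6% of genes lay at least 2-fold lower. The median gene stood at 0.646, and relative to that median Gabra2 alone of the 9 stayed past 2-fold, at 4.90, where 2.04% of genes were at least 2-fold higher and 1.26% lower. Nrg2 (0.546) and Gria3 (0.598) were lower than the median gene, whereas Nrg1 (0.881), Ncam1 (0.757) and Met (0.762) were lower by CPM but above the median gene.

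By CPM, each of the 9 genes differed in the same direction inside cluster 0, the largest population, but Ncam1 and Met, above the median gene over all nuclei, were below it there (0.757 and 0.884 relative to it). In cluster 0 Gabra2 stood at 12.9 CPM in library 1 and 45.0 CPM in library 2, a ratio of 3.50 (2.45 to 5.13), and was the first of 7319 genes in that order (0.0956% lay at least 2-fold higher). Apba1 stood at 0.296 (0.258 to 0.339), the sixth lowest of those genes, Stxbp6 at 0.358 (0.268 to 0.476), Nrg2 at 0.40 (0.353 to 0.453), Gria3 at 0.487 (0.454 to 0.523) and Ncam1 at 0.492 (0.325 to 0.742), and 14.8% of genes lay at least 2-fold lower. Epha7 (0.558), Met (0.575) and Nrg1 (0.665) were nearer to the median gene of cluster 0, which stood at 0.650. Relative to that median gene, Gabra2 (5.38, with 1.46% of genes at least 2-fold higher) and Apba1 (0.455, with 0.342% lower) were past 2-fold. Accessibility within 50 kb in the same nuclei gave ratios of 0.930 for Gria3 to 1.1 for Nrg2, with 1.02 (0.962 to 1.09) for Apba1 and 0.970 (0.896 to 1.05) for Stxbp6. The Gabra2 peak gave 0.942, with an interval from 0.491 to 1.97 from 33 and 46 counts.

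In GMP-like nuclei Gabra2 was 1.73-fold higher in library 2 (1.30 to 2.33) and Apba1 stood at 0.208 (0.117 to 0.355), the third lowest of 4027 genes. Over the 15 ranked populations Gabra2 was higher in library 2 in 11 and lower in 2, while the median gene was lower in library 2 in each of them (ratios of 0.579 to 0.935), and 8 of the 15 held fewer than 10 UMIs of Gabra2 in all. GMP-like nuclei made up 7.93% of library 1 and 12.2% of library 2, and the part of this in the ratio over all nuclei was not tested. No pool is tied to a library, and a difference of pools cannot be told apart from one of libraries.

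**Figure D4:**
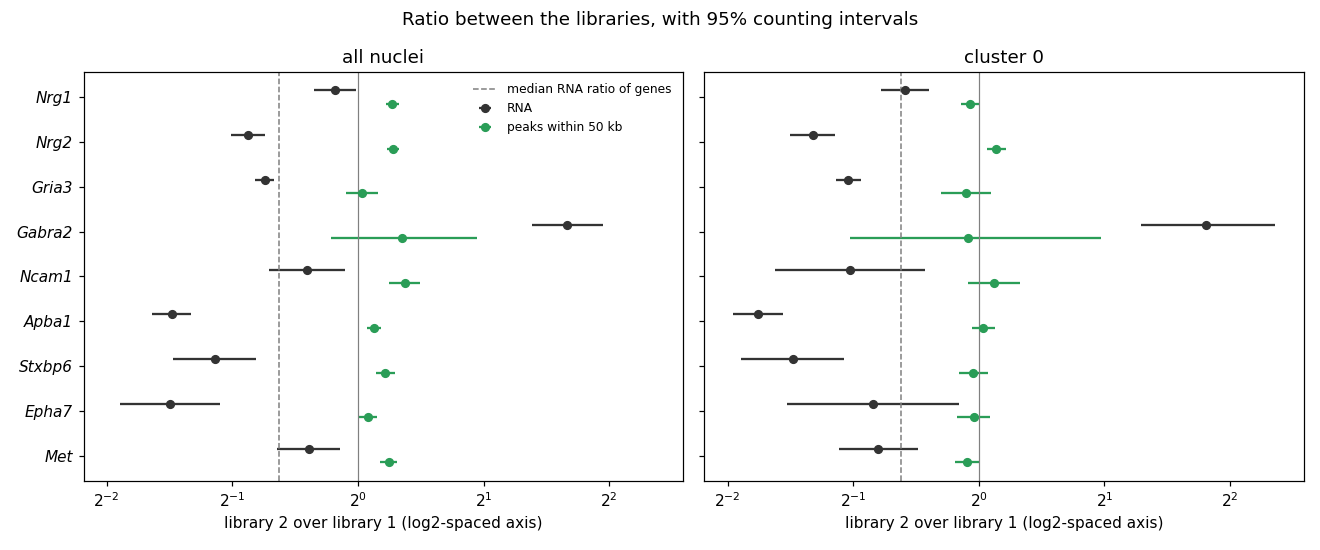
Ratio of library 2 over library 1 (x axis, log2-spaced) for RNA (dark) and for peaks within 50 kb (green) of each gene, over all nuclei (left) and in cluster 0 (right), with exact 95% counting intervals as bars, a line at 1 and a dashed line at the median RNA ratio of all genes. RNA ratios in cluster 0 run from 0.296 for Apba1 to 3.50 for Gabra2, while the peak ratios run from 0.930 to 1.1.

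Nuclei with any of the genes were most frequent in cluster 0 and cluster 5, without thinning. Gria3 gave much of this. Even after thinning, Gria3 alone was found in 54.2% and 34.3% of cluster 5 nuclei in libraries 1 and 2. In cluster 0 it was found in 43.2% and 24.3%. At least 1 of the 9 genes had a UMI in 82.3% of cluster 0 nuclei in library 1 and 63.7% in library 2, in 83.5% and 64.1% of cluster 5 nuclei, and in 11.9% and 13.2% of EryP-like nuclei. At least 3 of them were found in 25% and 6.14% of cluster 0 nuclei, in 20.3% and 1.27% of cMoP-like nuclei and in 16.5% and 2.0% of cluster 5 nuclei, and up to 6 in a single nucleus. Within cluster 0, Nrg1 and Apba1 met in 204 nuclei where the product of their shares gives 145, Nrg1 and Ncam1 in 32 where it gives 17.2, and Nrg2 and Gria3 in 462 where it gives 410. Gabra2 met Gria3 in 85 nuclei where the product gives 87.8, and Met in 11 where it gives 14.7. Of the 36 pairs, 13 had an interval of the ratio above 1, and every pair with Gabra2 held 1. Of the 28 pairs for which the product gives at least 10 nuclei the same number, 13, lay above 1, beside 5.44% of 9828646 such pairs among all genes with at least 200 UMIs, but the median ratio was 1.16 for these pairs and 1.1 for all. An interval narrows as the product grows, and the part of this and of depth per nucleus was not tested.

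**Figure D5:**
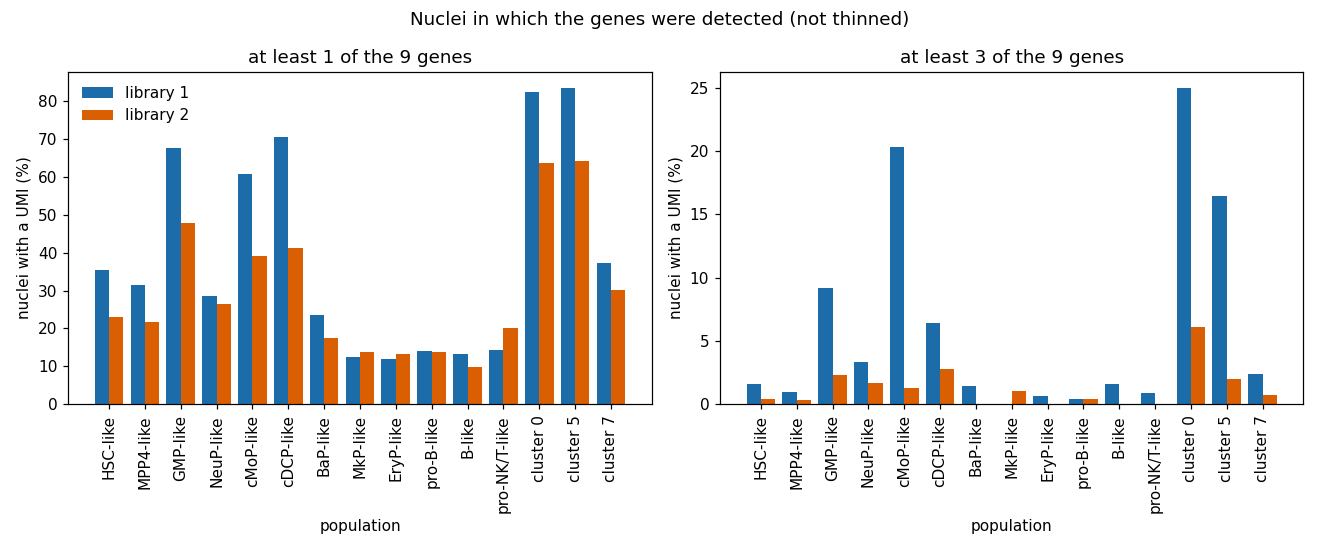
Share of nuclei (y axis, percent) with a UMI of at least 1 (left) and at least 3 (right) of the 9 genes in each of 15 populations (x axis) in library 1 (blue) and library 2 (orange). Cluster 0 stands at 82.3% and 63.7% in the left panel, and EryP-like nuclei at 11.9% and 13.2%.

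The 3 genes whose log2 levels over the 30 points were most like each of the 9 were named by Pearson's r. Nrg1 was most like Csf2ra (r = 0.77), a subunit of the GM-CSF receptor, F13a1 (0.74), a monocyte transglutaminase, and Vps13c (0.74). Apba1 was nearest to Dock4 (0.86), Nrg2 (0.84) and Cask (0.84), Nrg2 to Apba1, Zfp516 (0.79) and Sirpa (0.79), and Gria3 to Parp8 (0.87), Adap1 (0.76) and Apba1 (0.75). Gabra2 was nearest to Stk39 (0.79), Chdh (0.70) and the neutrophil granule gene Prtn3 (0.67), and Ncam1 to Gsr (0.83), Gda (0.81) and Gm19951 (0.77). Stxbp6 was nearest to BC005537 (0.77), Apba1 (0.76) and Pid1 (0.76), Met to Gria3 (0.74), Irf8 (0.70), a factor of monocyte and dendritic lineages, and Igsf8 (0.66), and Epha7 to Rnf130 (0.68), Rnf126 (0.67) and Mios (0.67). Gabra2 and Apba1 were not alike, with r = -0.08, and the 6907 genes compared share the same libraries and clusters.

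Nerve cells and glia were looked for by their own markers. Of 12 neuron markers, 11 were detected with 162 UMIs in all (7.10 CPM), Syt1 giving 51 and Nefl 0, and the list ran from 1.86 CPM in MkP-like nuclei to 11.6 CPM in GMP-like nuclei. Of 12 Schwann cell and glia markers, S100b and Foxd3 were at 0, and Mbp gave 953 of 1187 UMIs. That list shares Erbb3, Ncam2 and L1cam with the partner genes above, and the neuron list shares Snap25. Gria3 alone had 5898 UMIs, more than both lists together, in raw UMIs that were not set against gene span. Whether nerve cells or glia gave UMIs of the 9 genes was not tested. The stromal list had 329 UMIs, 254 of them from Pdgfrb, and the endothelial list 2625, of which 2131 came from Pecam1, a gene that blood progenitors express as well.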

How the data were processed

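The authors deposited 1 matrix of raw counts, UMIs for genes and transposase counts for peaks, made with Cell Ranger ARC 2.0.0 on GRCm38 (mm10), and their processing notes also name Seurat 4.0.3 and Signac 1.3.0. Of 18961 barcodes, those with at least 200 genes and 1000 to 50000 peak counts were kept, 13619 in all. The matrix held 0 mitochondrial gene rows. Of nonzero peak entries 82.5% were even, so intervals of peak counts were computed on pairs of counts. RNA (30 principal components of 2000 variable genes) and ATAC (components 2 to 30 of latent semantic indexing) were corrected between libraries, joined by weighted nearest neighbours and clustered at resolution 0.8 (Seurat 5.3.0, R 4.3.3, numpy 2.4.6, scipy 1.17.1), without the 9 genes and their peaks. Of 18 clusters, 14 were named from lists for 15 classes, when at least 3 markers of a class were raised 2-fold with at least 10 UMIs, its markers averaged at least 2-fold, and the 10 leading genes held at least 1 of them and no more of another class. The B-like cluster was also led by the plasma cell genes Iglc1, Jchain and Igha. Scrublet (scanpy 1.11.5) called 3 doublets, whether it missed others was not tested, and no nuclei were removed as doublets. Leaving out the top 8% of its scores, as an alternative, left the counts of genes repeated under other settings unchanged. Log2 ratios and the folds of partner genes used a pseudocount of 1 CPM, and the folds printed for the 9 genes in each library used none. The code for ratios was tested on simulated counts. Correlations used genes with at least 200 UMIs and, for chromatin, at least 500 peak counts. Named were all 9 genes, the 3 most alike genes of each, and, in each family of partners, the 2 highest, those at 0 and those raised 2-fold with at least 20 UMIs in the leading population of the member. Other partners, among them L1cam, Hgf and the subunits named for their low counts, were named after their values were seen. Of the peaks near each gene, the 2 with the widest range and the one over its start were named, and other start peaks were named after their values were seen. The members and lists were chosen with earlier results of these data known. Starts and spans came from GENCODE vM21, and sequences from the RefSeq genome, none being shown for chromosome 18. There were no replicates, and no test was run.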

Additional observations from a re-analysis of the deposited data

How the results depend on the processing

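No paired analysis was possible because the labels give no replicate numbers and no result comes from a test. Of the repeats of the 5 counts under other settings, 44 stayed within 1.5 times the reported count and 4 did not. Genes led by a population that raised at least 3 myeloid markers numbered 8 instead of 4 with clusters from RNA alone and 2 with at least 500 genes per nucleus, which left 1988 nuclei of library 2 and 8 ranked populations. Genes raised 2-fold in both libraries numbered 4 instead of 7 with a pseudocount of 10 CPM, and library 1 alone gave 9 and library 2 alone gave 7, an alternative chosen after the data were seen. Genes past 2-fold between libraries numbered 1 (Gabra2) instead of 4 with median-of-ratios scaling. That scaling reversed the log2 ratio of library 2 over library 1 for Nrg1 (0.45), Ncam1 (0.23) and Met (0.24), and leaving the ribosomal locus out of the total reversed it for Nrg1 (0.10). The causes of these changes were not tested. Gabra2 kept a log2 ratio between 1.63 and 2.29 over 5 alternatives. With clusters from RNA alone 1 unnamed cluster led for Nrg1, Nrg2, Gria3 and Met, cDCP-like nuclei led for Stxbp6 and EryP-like nuclei for Epha7. With at least 500 genes per nucleus 1 unnamed cluster led for Nrg1, Nrg2, Stxbp6 and Met and another for Gria3 and Apba1. There GMP-like nuclei led for Ncam1 and HSC-like nuclei for Epha7, and populations no longer ranked could not lead. At a clustering resolution of 0.4 GMP-like nuclei led for Nrg2 and pDCP-like nuclei for Gria3, as pDCP-like nuclei did for Gria3 with clusters from ATAC alone. Without correction between the libraries 1 unnamed cluster led for Nrg1 and Nrg2. With peaks over the whole gene, an alternative chosen after the data were seen, 5 genes were again led by the population of their RNA, but Nrg2 took the place of Epha7, whose peaks then led in GMP-like nuclei. In cMoP-like and cDCP-like nuclei, levels rest on 148 and 185 nuclei, and values of 1 to 7 UMIs bound little.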

Other observations

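Transcripts of Rest, whose protein represses nerve cell genes in other tissues, and of genes for its partners were found in these nuclei. Rest itself had 1213 UMIs (53.1 CPM), and its corepressor Rcor1 had 2254 UMIs (98.7 CPM). Sin3a (60.9 CPM) and Kdm1a (52.6 CPM) were of like level, and Rcor2 had 39 UMIs.

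Over the whole gene and 50 kb on each side, Nrg2 had 54 peaks and 57772 counts, Nrg1 48 peaks and 27527 counts, and Gabra2 1 peak and 217 counts. Gfra1 (a receptor gene listed with Ncam1) stood at 226 CPM in pro-B-like nuclei and 0 in MkP-like nuclei.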
